A study of Homo sapiens with 10 samples.

Results

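In SKBR3 cells, 9156 distal regions carried a peak of acetylated histone H3 lysine 27 (H3K27ac) that the second cell line of the study, MDA-MB-453, lacked. They were chosen by their presence in the peak lists. The 8 deposited lists were merged wherever peaks overlapped by 1 bp or more on chromosomes 1 to 22 and X, which gave 76044 merged regions. A merged region was kept when each SKBR3 list and not a single MDA-MB-453 list had a peak there, and when it lay more than 1 kb from any transcription start site (TSS) of the GENCODE release 44 basic set. These regions are called SKBR3-specific distal regions below, and their presence in one line and absence from the other is the rule and no finding.

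SKBR3 and MDA-MB-453 are established breast cancer cell lines, which the study's design text groups as HER2 lines. The study asked how TWEAK, a cytokine of the tumour necrosis factor family that binds the receptor Fn14, acts on H3K27ac in breast cancer lines. The untreated groups had 2 libraries in each line, and the TWEAK groups, given 10 ng/ml for 48 h with the cytokine replenished after 24 h, also had 2 in each line. All groups had been serum starved for 8 h. No genotype differed between groups of a line. With 1 line on each side, a difference between the lines cannot be told apart from any other property that sets these lines apart. An input sample for each line had no list of its own. The study's methods describe the ChIP-seq replicates of cell lines as biological and the cell line experiments as run on separate days, but the labels tie no library to a culture or day, so p-values measure the spread between these libraries.

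H3K27ac is placed by the acetyltransferases p300 and CBP and marks active promoters and active enhancers. Enhancers are stretches of DNA that bind transcription factors and raise the transcription of genes that may lie far away. Distal H3K27ac differs more between cell types than promoter H3K27ac does, and for this reason it is often used to read which transcription factors shape a cell type. In breast epithelium such factors include GATA3, FOXA1, TFAP2C and the AP-1 family, and TWEAK is known to signal to NF-kB. The nearest gene of an enhancer is not always its target, and it is used below only to give a position.

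The sequences below show motif matches in the regions that the results turn on, from hg38, plus strand, 5′ to 3′. Each stretch has 120 bases. Capitals mark the match to the AP-1 letters TGANTCA in the first group. The first pair lay in regions with some of the highest H3K27ac levels, chr20:56800252-56811983 near TFAP2C, which encodes a transcription factor of luminal breast cells, and chr1:66269801-66274582 in an intron of PDE4B, a phosphodiesterase that breaks down cyclic AMP. The next 3 lay in regions around EGFR, the epidermal growth factor receptor, which had 13 SKBR3-specific distal regions.
TFAP2C, chr20:56805888-56806007: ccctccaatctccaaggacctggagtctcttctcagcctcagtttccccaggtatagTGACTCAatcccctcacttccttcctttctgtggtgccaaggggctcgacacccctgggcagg
PDE4B, chr1:66271909-66272028: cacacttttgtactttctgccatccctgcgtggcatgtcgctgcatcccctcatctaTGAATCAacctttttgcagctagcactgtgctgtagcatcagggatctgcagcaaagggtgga
EGFR, upstream, chr7:54961465-54961584: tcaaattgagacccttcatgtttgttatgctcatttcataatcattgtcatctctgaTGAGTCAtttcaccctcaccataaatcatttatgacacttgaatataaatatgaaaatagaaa
EGFR, intron, chr7:55053206-55053325: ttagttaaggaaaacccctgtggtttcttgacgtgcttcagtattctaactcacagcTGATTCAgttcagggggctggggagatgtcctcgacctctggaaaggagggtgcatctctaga
EGFR, intron, chr7:55074151-55074270: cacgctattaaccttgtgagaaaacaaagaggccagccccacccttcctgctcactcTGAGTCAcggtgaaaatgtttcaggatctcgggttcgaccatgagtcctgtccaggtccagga

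In the second group, capitals mark a match to the NF-kB motif. All 4 stretches lay in regions whose H3K27ac rose with TWEAK. The stretch near DCN belongs to the 5 regions with the lowest p, and the other 3 were chosen after their values were seen, because it was the only one of those 5 with the motif in its window. Their nearest genes encode decorin (DCN), an RNA binding protein (QKI), a T-box factor of mammary development (TBX3) and a transcription factor (ETS1).
DCN, chr12:91407000-91407119: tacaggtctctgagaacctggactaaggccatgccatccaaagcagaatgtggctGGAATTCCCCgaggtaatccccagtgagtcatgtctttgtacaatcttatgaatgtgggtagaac
QKI, chr6:163367704-163367823: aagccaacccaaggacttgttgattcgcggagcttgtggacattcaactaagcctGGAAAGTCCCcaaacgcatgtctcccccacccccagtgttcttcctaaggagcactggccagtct
TBX3, chr12:115375136-115375255: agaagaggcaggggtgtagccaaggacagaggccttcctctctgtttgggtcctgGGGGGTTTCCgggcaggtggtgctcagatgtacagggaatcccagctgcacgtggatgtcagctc
ETS1, chr11:128468108-128468227: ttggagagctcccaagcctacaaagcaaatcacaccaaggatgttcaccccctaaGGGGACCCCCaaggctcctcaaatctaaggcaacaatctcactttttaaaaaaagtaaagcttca

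The 9156 regions made up 49.8% of the 18387 distal regions that all 4 SKBR3 lists held, and 85.2% of the 10747 regions that met the rule at any distance from a TSS. For comparison, the same rule with the lines exchanged gave 6849 MDA-MB-453-specific distal regions, and 7580 distal regions were in all 8 lists. Close to the rule stood 3561 distal regions that missed a peak in 1 SKBR3 list, and 634 that had a peak in 1 MDA-MB-453 list. The region next inside the distance limit, chr17:78313744-78314726, lay 1003 bp from a TSS and had a fold enrichment of 2.94 and 4.65 in the untreated and 3.67 and 3.67 in the TWEAK libraries. The region next outside, chr15:78294286-78295730, lay 1000 bp from a TSS and had 3.04, 2.94, 2.92 and 3.01. Fold enrichment here is the authors' ratio of ChIP signal over background at the highest peak of a list in the region.

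The SKBR3 lists held 43684 to 51687 peaks on these chromosomes and the MDA-MB-453 lists 36148 to 37813, so more regions could pass the rule in SKBR3. Depth is unknown because reads were not used, and absence of an MDA-MB-453 peak does not show absence of signal there. The promoters of all 8 epithelial and HER2 marker genes examined, KRT8, EPCAM and ERBB2 among them, held a peak in every list of both lines. Of 12 markers of other cell types, 10 held none in any list, while CDH5 and COL1A1 held one in all 8.

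SKBR3-specific distal regions were of moderate H3K27ac level. Their median percentile of fold enrichment within a list was 48.2 and 44.01 in the untreated libraries and 48.4 and 53.5 in the TWEAK libraries. The distal regions that both lines shared ranked higher in every SKBR3 library, at medians of 65.4, 64.6, 64.96 and 70.9. The interquartile ranges of the groups overlapped in every library. In fold enrichment, the medians of the SKBR3-specific distal regions were 3.55, 3.90, 3.93 and 4.17, and 5% of them exceeded 7.39, 9.50, 9.69 and 10.6. As merged regions they were also narrower, with a median width of 2018 bp against 3294 bp. A shared region joins peaks of 8 lists and a SKBR3-specific one of 4, so these widths are not alike. Within single SKBR3 lists, the median bases covered per region were 1342, 1317.5, 1397 and 1520, against 2010, 2114, 2032 and 2275. The SKBR3-specific distal regions took 17.2%, 17.2%, 17.7% and 16.9% of the bases covered by the SKBR3 lists. The rule asked for a called peak in each SKBR3 list, so values below the threshold of the peak caller are cut off.

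**Figure D1:**
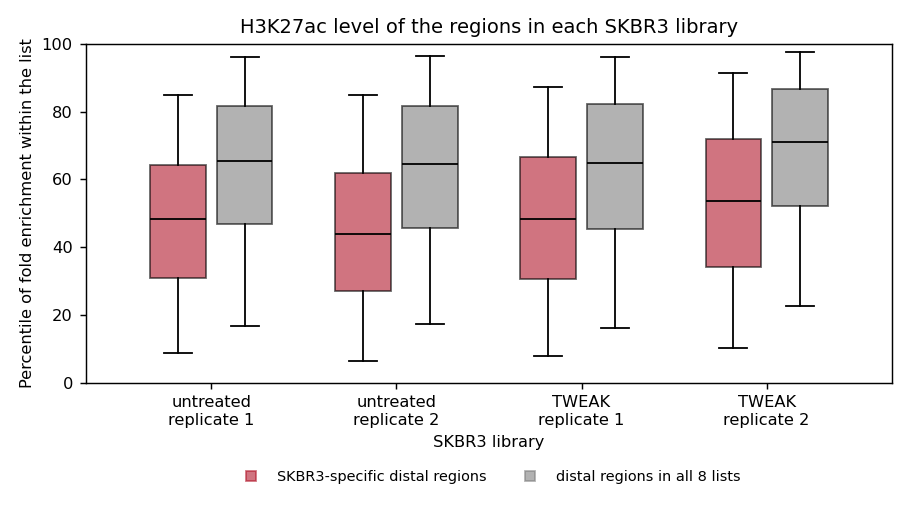
Percentile of fold enrichment within each SKBR3 list (y axis) for the 9156 SKBR3-specific distal regions and the 7580 distal regions in all 8 lists, by library (x axis), with boxes for the interquartile range, a line for the median and whiskers from the 5th to the 95th percentile over regions. Medians of the SKBR3-specific regions lie between 44.01 and 53.5 and those of the shared regions between 64.6 and 70.9.

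The highest ranked of these regions reached the top of every SKBR3 list. By mean percentile over the 4 libraries, the second, chr20:56800252-56811983, lay 171 kb from TFAP2C and had a fold enrichment of 22.9 and 38.8 untreated and 30.8 and 28.0 with TWEAK, which overlap. The third, chr1:198651848-198660561, lay in an intron of PTPRC, which encodes the leukocyte antigen CD45, and had 24.4 and 25.9 untreated and 33.6 and 37.6 with TWEAK, which do not overlap. The PTPRC promoter held no peak in any list.

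Those ranked 4 to 10 lay near BACE2, GDI2, ACSL5 and in introns of CAMTA1, MYO18A, PDE4B and ADAM19. Their lowest fold enrichment in any library was 20.8 and their highest 34.9. CAMTA1, a transcription activator, is the only one of these 7 genes that also stood among the 10 with the most SKBR3-specific distal regions. Widths of the 10 regions ran from 4.78 kb to 14.9 kb, all above the median of the set. None of the 10 passed the limma test of TWEAK against untreated described below, with adjusted p between 0.545 and 0.990.

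Most of the SKBR3-specific distal regions lay in introns. By the midpoint, 56.3% were in an intron of a protein-coding gene (95% Wilson interval 55.3 to 57.3), 3.79% in an exon and 39.9% outside protein-coding genes. Intervals on shares cover counting error only and treat regions as independent, which they are not. MDA-MB-453-specific distal regions were in introns in 45.8% of cases and shared distal regions in 53.5%. The median distance to a protein-coding TSS was 32.2 kb, against 76.7 kb for MDA-MB-453-specific and 35.4 kb for shared distal regions.

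Part of these regions lay within a few kb of an H3K27ac peak of MDA-MB-453. Of the 9156, 21.3% (20.5 to 22.2) lay within 5 kb of an MDA-MB-453 peak and 1.70% within 1 kb, and the median distance to one was 15.2 kb. Of the MDA-MB-453-specific distal regions, 17.7% (16.8 to 18.6) lay within 5 kb of a SKBR3 peak and 1.93% within 1 kb. Their median distance to one was 24.9 kb. The nearest protein-coding gene had a promoter peak in all 8 lists for 57.8% of the regions, in no list for 22.04%, in the SKBR3 lists only for 6.76% and in the MDA-MB-453 lists only for 1.89%. For MDA-MB-453-specific distal regions these shares were 44.2%, 31.8%, 1.68% and 10.2%. In both sets the larger part of the nearest promoters with a peak had one in every list of both lines.

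Chromosomes differed in how much of the distal H3K27ac of SKBR3 was absent from MDA-MB-453. SKBR3-specific regions made up 58.6% of the distal regions in all 4 SKBR3 lists on chromosome 7, 58.4% on chromosome 20, 56.3% on chromosome 19, 55.6% on chromosome 16 and 55.3% on chromosome 9. The lowest shares were 42.3% on chromosome X, 43.1% on chromosome 18 and 43.4% on chromosome 14. Chromosome X held 179 SKBR3-specific and 398 MDA-MB-453-specific distal regions, chromosome 20 held 377 and 150, and chromosome 19 held 314 and 70.

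In windows of 10 Mb, a division chosen after the data were seen, the window with the most SKBR3-specific distal regions was chromosome 20 from 50 to 60 Mb, with 113 of 167 SKBR3 distal regions (67.7%). It holds TFAP2C. On chromosome 7 from 70 to 80 Mb, where GALNT17 lies, 98 of 134 (73.1%) were SKBR3-specific, and on chromosome 13 from 110 Mb to its end, 43 of 52 (82.7%). MDA-MB-453-specific distal regions numbered 7, 9 and 1 in these 3 windows. DNA copy number was not measured, and its part in these counts was not tested.

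**Figure D2:**
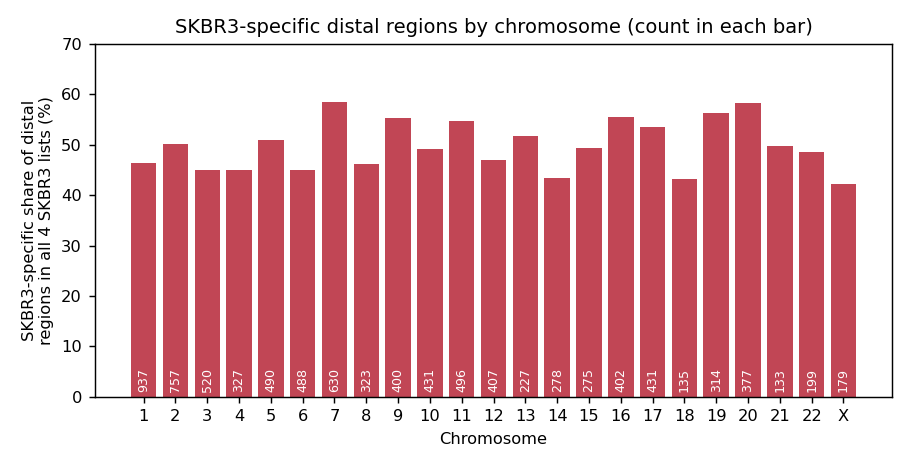
Share of the distal regions in all 4 SKBR3 lists that were SKBR3-specific (y axis, percent) on each chromosome (x axis), with the number of SKBR3-specific distal regions written in each bar. The share runs from 42.3% on chromosome X to 58.6% on chromosome 7.

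The sequence of SKBR3-specific distal regions differed from that of the MDA-MB-453-specific ones in several motifs. Both strands of the central 1000 bp of each region were searched, and a match is a description of the sequence, not a bound site. AP-1 letters (TGANTCA) were in 39.1% (38.1 to 40.1) of SKBR3-specific, 36.7% of shared and 34.4% (33.3 to 35.5) of MDA-MB-453-specific distal regions. TEAD letters (ACATTCC), read by the nuclear effectors of the Hippo pathway, were in 21.2% (20.3 to 22.02), 17.8% and 15.6% (14.8 to 16.5). In the same order of sets, KLF letters (GGGCGTG) were in 12.1% (11.5 to 12.8), 9.95% and 4.60% (4.13 to 5.12), and the NF-kB motif in 13.2% (12.5 to 13.9), 11.3% and 7.80% (7.19 to 8.46). For all 4 motifs the SKBR3-specific regions had the highest share and the MDA-MB-453-specific the lowest.

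FOXA and GATA letters ran the other way. FOXA letters (TGTTTAC), read by the pioneer factor FOXA1, were in 17.7% (17.0 to 18.5) of SKBR3-specific, 22.1% of shared and 26.6% (25.6 to 27.7) of MDA-MB-453-specific distal regions. GATA letters (AGATAAG), read by GATA3, were in 10.2% (9.64 to 10.9), 12.6% and 17.7% (16.8 to 18.6). CEBP letters (TTGCNNAA) were in 42.2%, 45.7% and 52.8%, and POU letters (ATGCAAAT) in 5.94%, 7.22% and 9.59%.

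Base composition moved with these shares. Mean GC content was 46.2% in SKBR3-specific, 45.3% in shared and 41.6% in MDA-MB-453-specific distal regions. Within bands of GC content chosen after the data were seen, AP-1 letters were in 42.9% of SKBR3-specific against 36.2% of MDA-MB-453-specific regions of 40 to 45% GC, and in 39.1% against 32.9% of those of 45 to 50% GC. FOXA shares were 20.6% against 26.2% in the lower band and 14.8% against 19.5% in the higher, and GATA shares 11.6% against 19.3% and 10.7% against 15.7%. TEAD and KLF shares also kept their order in both bands. TFAP2 letters (GCCNNNGGC), at 28.5% against 20.8% over all regions, were at 19.4% against 20.1% and 27.8% against 29.4% within the bands. The NF-kB motif was at 9.79% against 6.36% in the lower band and 13.3% against 12.9% in the higher.

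Over all 76044 merged regions, promoters included, AP-1 letters were in 25856 regions (34.001%), TEAD letters in 16.5%, KLF letters in 12.1%, the NF-kB motif in 13.8%, TFAP2 letters in 30.1%, FOXA letters in 18.5%, GATA letters in 11.9%, CEBP letters in 42.1% and POU letters in 6.46%. Against these figures the AP-1 and TEAD shares of the SKBR3-specific distal regions were high, and their NF-kB and KLF shares were not. Of 4667 AP-1 matches in these regions, 6.15% overlapped a match to the MAF and CNC letters (TGACNNNGC). Letters common in Alu repeats, ATTACAGG, lay within 12 bases of 124 of the matches (2.66%), against 0.841% in MDA-MB-453-specific regions. Without them the AP-1 shares were 38.2% and 34.2%. Only matches beside these exact letters were left out and no repeat mask was at hand, so matches in altered repeat copies may remain. For KLF and the other motifs, the part of repeats in the shares was not tested.

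**Figure D3:**
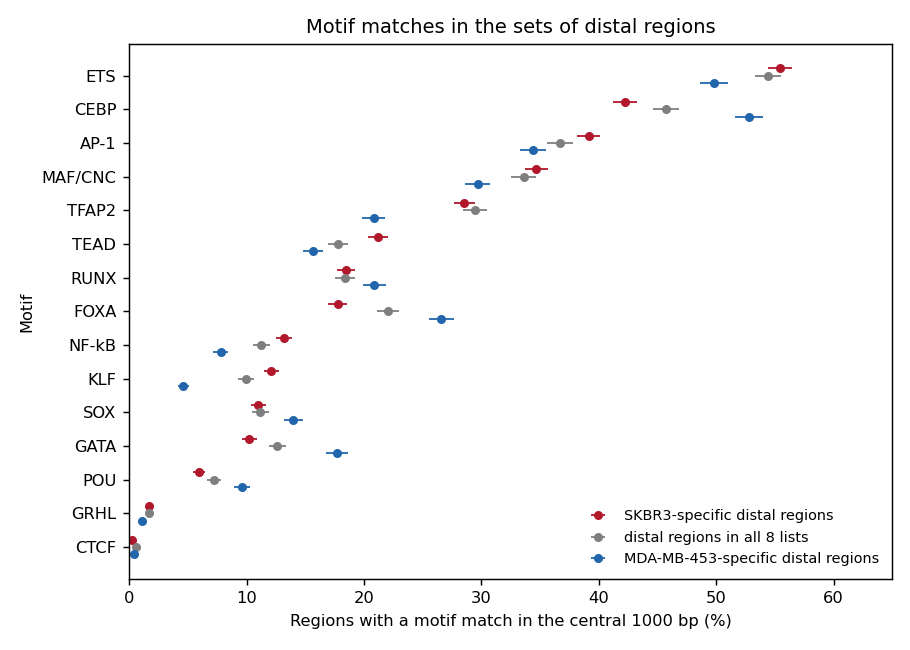
Share of regions with a motif match in the central 1000 bp (x axis, percent) for 15 motifs (y axis) in SKBR3-specific, shared and MDA-MB-453-specific distal regions, with 95% Wilson intervals. SKBR3-specific regions stand highest for AP-1, TEAD, KLF and NF-kB and lowest for FOXA, GATA, CEBP and POU.

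SKBR3-specific distal regions were spread over many genes. Of 19970 protein-coding genes, 4979 (24.9%) were nearest to at least 1 of them, 3353 to an MDA-MB-453-specific distal region and 1250 to both. Those with 5 or more numbered 270. XYLT1 had the most, with 24 spread from 11.1 to 519 kb from its TSS. It encodes the xylosyltransferase that starts the sugar chains of proteoglycans. TNS3, which encodes a focal adhesion protein, had 16 and KLF6, a zinc finger transcription factor, had 14. The 7 genes with 13 each were GALNT17, CAMTA1, PDE4D, EGFR, CTNNA1, IQSEC1 and CITED2. Of these, PDE4D encodes a phosphodiesterase, CTNNA1 the adhesion protein alpha-catenin, IQSEC1 an exchange factor for ARF GTPases and CITED2 a transcriptional regulator that binds p300 and CBP. Counts were not corrected for gene length or for the distance between genes.

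XYLT1 also showed the difference at its promoter, where 3 SKBR3 lists but none of MDA-MB-453 had a peak, and it was nearest to 1 MDA-MB-453-specific region. Fold enrichment over its 24 regions had medians of 3.48 and 5.08 untreated and 4.61 and 5.11 with TWEAK, with a highest value of 18.9. The GALNT17 promoter, of a glycosyltransferase family gene, held a peak in all 4 SKBR3 lists only, and all of its 13 regions were intronic. Promoters of KLF6, CAMTA1, PDE4D, CTNNA1 and CITED2 held a peak in all 8 lists. KLF6 and CITED2 were also nearest to 11 and 8 distal regions that both lines shared.

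EGFR had no distal region of the other 2 sets. Of distal regions nearest to EGFR, 13 were SKBR3-specific, none were MDA-MB-453-specific and none were in all 8 lists, while the promoter held a peak in all 4 SKBR3 lists and in 1 MDA-MB-453 list. The highest of them, chr7:54965324-54968765, 50.3 kb upstream, had a fold enrichment of 8.34 and 15.9 untreated and 13.6 and 17.8 with TWEAK. Next came the intron region chr7:55024243-55034541, with 4.52, 6.19, 7.58 and 5.93. The groups overlapped at both. Regions chr7:55051133-55055299 and chr7:55061321-55066845, both intronic, had values that did not overlap, at 3.90 and 5.11 against 6.89 and 8.37, and at 3.94 and 4.47 against 6.85 and 9.34. Their log2 changes of 0.71 and 0.87 did not pass the limma test (adjusted p of 0.194 and 0.119). Over the 13, the median fold enrichment was 3.35 and 4.37 untreated and 4.28 and 4.52 with TWEAK, and 5 held AP-1 letters.

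Among other ERBB receptors and ligands on the list, NRG2, which encodes a neuregulin ligand, was nearest to 6 SKBR3-specific distal regions, all in introns, and its promoter held no peak in any list. BTC, EREG and TGFA, ligands of the EGF receptor, and EGF itself were each nearest to 1 SKBR3-specific distal region. BTC was also nearest to 3 MDA-MB-453-specific ones. ERBB4 was nearest to 1 SKBR3-specific and 10 MDA-MB-453-specific distal regions. In all, 8 of 17 genes of the list (47.1%, against 24.9% of protein-coding genes) were nearest to a SKBR3-specific distal region. To an MDA-MB-453-specific one, 4 were nearest (23.5%, against 16.8% of protein-coding genes).

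Luminal and epithelial transcription factors stood near SKBR3-specific distal regions in 21 of 28 cases, against 24.9% of protein-coding genes. They stood near MDA-MB-453-specific ones in 15 of 28 cases (53.6%), against 16.8% of protein-coding genes. The list thus lay above the share over all protein-coding genes for both sets, not for the SKBR3-specific regions alone. TFAP2C had 8 and no MDA-MB-453-specific region. KLF4 had 7 against 4 and RUNX1 had 6 against 1. GATA3, the luminal master regulator, had 5 against 10, and TRPS1, a GATA family repressor, 5 against 7. All 5 genes held promoter peaks in all 8 lists. Distal regions in all 8 lists were also nearest to 22 of these 28 genes, against 21.5% of protein-coding genes.

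TMPRSS2, which encodes a serine protease, had 6 SKBR3-specific distal regions and no MDA-MB-453-specific one. Fold enrichment over the TMPRSS2 regions had medians of 5.30 and 5.97 untreated and 4.92 and 6.78 with TWEAK. Keratin and junction genes were at 6 of 28 (21.4%), S100 and annexin genes at 2 of 14 (14.3%), and AP-1 and dual specificity phosphatase genes at 5 of 16 (31.2%), with ATF3 at 4 and FOSL2 at 3. The share over all protein-coding genes was 24.9%. In the same order of lists, MDA-MB-453-specific distal regions were nearest to 3, 2 and 6 genes. These were 10.7%, 14.3% and 37.5%, against 16.8% of protein-coding genes. PKP1, which encodes a desmosome protein, ANXA3, an annexin, and S100A6, a calcium binding protein, held a promoter peak in the SKBR3 lists only.

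Of the NF-kB and TNF pathway list, 9 of 24 genes (37.5%, against 24.9% of protein-coding genes) had 16 SKBR3-specific distal regions. TNFAIP2 had 4 SKBR3-specific ones and TNFAIP3, which encodes the inhibitor A20, had 3. MAP3K14, the kinase NIK of the non-canonical pathway, and NFKBIA, the inhibitor of NF-kB, had 2 each. Of the mesenchymal and basal list, 8 of 19 genes (42.1%, against the same 24.9%) had at least 1 SKBR3-specific distal region. MDA-MB-453-specific distal regions were nearest to 4 of the 19 (21.1%), and those in all 8 lists to 9. SNAI1, an inducer of epithelial to mesenchymal transition, had 4 SKBR3-specific ones and a promoter peak in the SKBR3 lists only. TWIST2 had 4 and no promoter peak in any list.

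Regions also stood in groups. With gaps of 10 kb or less, 27.8% (26.9 to 28.7) of the SKBR3-specific distal regions fell into 1134 clusters of 2 or more, against 21.4% (20.5 to 22.4) of the MDA-MB-453-specific ones, which are fewer. The largest held 6, and the largest MDA-MB-453-specific cluster 7. The cluster within EGFR, chr7:55024243-55074528, had 27.2 kb covered in 50.3 kb, and its mean fold enrichment was 3.50 and 4.33 untreated and 5.11 and 5.72 with TWEAK. The other cluster of 6, chr19:19443703-19490808 at GATAD2A, a subunit of the NuRD complex, had 17.98 kb covered and 3.31, 3.597, 3.42 and 3.32. Of the 16 clusters of 5, the 8 that covered the most bases lay at FBLN2, NAXD, PHF20, ARID5B, MICAL2, EYA2 and in 2 stretches at ABTB2. The cluster at FBLN2, an extracellular matrix gene, covered the most, 34.9 kb. None of the regions in these 10 clusters passed the limma test.

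The effect of TWEAK at these regions was tested on fold enrichment, a measure the rule did not use beyond the presence of a peak in each SKBR3 list. The log2 fold enrichment of all 30481 merged regions in the 4 SKBR3 lists was quantile normalised and fitted with limma, 2 TWEAK against 2 untreated libraries, with p-values adjusted by the Benjamini-Hochberg method over all of them. Limma drew the spread of each region toward a prior pooled over all these regions, with 9.21 prior degrees of freedom. The p-values and SEs therefore rest largely on that pooled spread, not on the 4 values of a region alone. A region that untreated cells lacked was outside the rule, so changes here are in height, not in presence.

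H3K27ac rose with TWEAK at 93 of the 9156 SKBR3-specific distal regions (1.02%, interval 0.830 to 1.24), at an adjusted p under 0.05, and fell at none in this fit. Over all 30481 regions 172 rose (0.564%) and 1 fell (0.00328%). At an unadjusted p under 0.05, 874 SKBR3-specific distal regions were higher and 208 lower. Shares that rose were 0.422% (0.299 to 0.595) in distal regions of all 8 lists, 0.909% (0.551 to 1.49) in other distal regions, 0.943% (0.572 to 1.55) in SKBR3-specific regions within 1 kb of a TSS and 0.162% (0.101 to 0.259) in other regions within 1 kb of a TSS. The share in SKBR3-specific distal regions thus lay above those of shared distal regions and of other promoters, and its interval overlapped those of the other distal and the SKBR3-specific promoter regions. The median log2 change was 0.03 in the SKBR3-specific distal regions and −0.04 over all.

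The 5 with the lowest p all stood apart by treatment. At chr8:74176166-74178867, 142 kb from GDAP1, fold enrichment was 2.20 and 1.97 untreated and 7.51 and 9.36 with TWEAK. At chr2:231874318-231879978, 46.4 kb from NPPC, which encodes a natriuretic peptide, it was 2.80 and 3.79 against 12.7 and 13.6. Both TWEAK libraries were above both untreated libraries at each, and the log2 changes were 1.96 ± 0.20 (SE) and 1.98 ± 0.20, each with a limma adjusted p of 0.00246.

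In an intron of EGLN3, which encodes an oxygen sensing prolyl hydroxylase, chr14:34251163-34260124 went from 4.16 and 4.72 untreated to 16.6 and 19.0 with TWEAK. At chr12:91406196-91408285, 223 kb from DCN, values were 3.15 and 3.63 against 12.2 and 15.8. At chrX:40865800-40868344, 130 kb from MED14, they were 2.81 and 3.25 against 9.90 and 10.6. None of these values overlapped between treatments, and log2 changes were 1.93, 1.995 and 1.71 (limma adjusted p of 0.00246, 0.00292 and 0.00339). Of the 5, the region near DCN held the NF-kB motif shown above and AP-1 letters as well, and those near NPPC and MED14 held AP-1 letters.

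**Figure D4:**
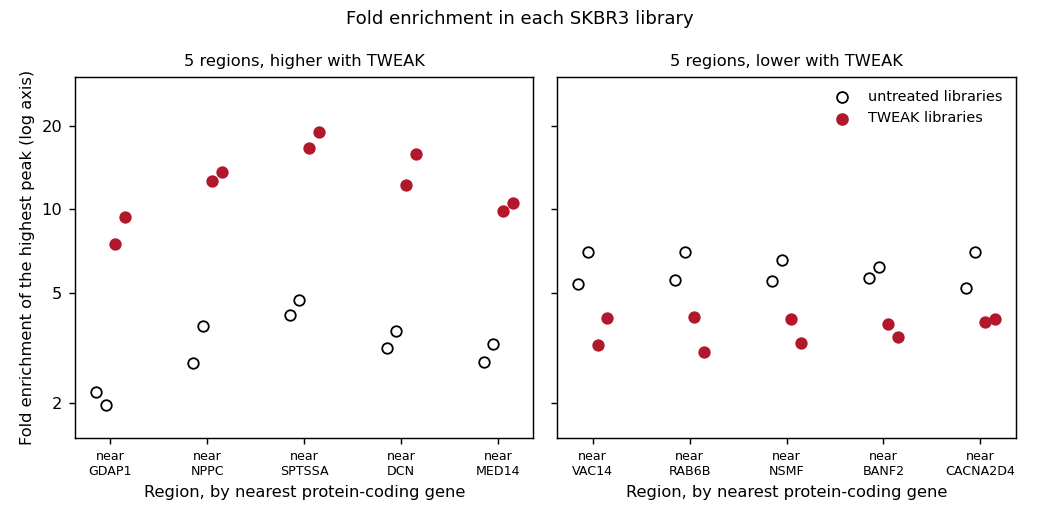
Fold enrichment of the highest peak in each of the 4 SKBR3 libraries (y axis, log scale) at the 5 SKBR3-specific distal regions with the lowest p among those higher with TWEAK (left) and among those lower (right), each named by its nearest protein-coding gene, with open circles for untreated and filled circles for TWEAK libraries. The values on the left do not overlap between treatments and passed the test, and those on the right do not overlap and did not pass.

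Further regions that rose are given here, chosen after their values were seen. The one with the largest log2 change, 2.38 ± 0.28 (SE), was chr6:163366191-163370249 near QKI, at 2.61 and 3.88 untreated and 12.9 and 21.5 with TWEAK (limma adjusted p of 0.00517). Near MMP7, a matrix metalloproteinase, values were 3.34 and 3.25 against 9.74 and 22.4, so the TWEAK libraries there differed by more than those at QKI. Near TNIP1, which encodes a partner of A20, they were 3.82 and 3.605 against 12.5 and 11.4, with a log2 change of 1.59 (limma adjusted p of 0.00569). Of the 10 genes with the most regions, IQSEC1 alone had one that rose, chr3:13240316-13243435, at 4.44 and 5.87 against 12.9 and 15.3 (log2 change 1.40, limma adjusted p of 0.012).

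Of the gene lists, the luminal and epithelial factors had 4 of 63 regions that rose. Over all SKBR3-specific distal regions 1.02% rose, and over all regions fitted 0.564%. The 4 regions lay 690 kb from TBX3 (log2 change 1.77), 43.3 kb from GRHL3 (1.54), 310 kb from GATA3 (1.5045) and 228 kb from TFAP2C (1.11). None of the 25 regions of the ERBB list, the 16 of the NF-kB and TNF list, the 13 of the AP-1 and phosphatase list, the 8 of the keratin list, the 6 near TMPRSS2 or the 5 of the S100 list passed. The nearest to the threshold was chr6:137871829-137875394 in an intron of TNFAIP3, with 3.94 and 3.13 untreated and 7.54 and 8.50 with TWEAK (log2 change 1.09, limma adjusted p of 0.0554). TGFA, at 3.78 and 3.91 against 5.83 and 10.1, had an adjusted p of 0.172 in the limma fit.

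The 93 regions that rose lay near 91 different genes and in 92 different clusters. ETS1 and PLPP6 were each nearest to 2. Their median log2 change was 1.37, from 0.99 to 2.38, and all 93 were higher in both TWEAK libraries than in both untreated ones, a separation that the call itself favours and that 2254 of all 9156 regions showed. Their median percentile was 35.7 untreated, below the 45.01 of the regions that did not pass, and 88.8 with TWEAK. These percentiles rank the fold enrichment that the call used, so the call itself favours a low untreated and a high TWEAK rank. The regions that rose were wider, with a median of 2928 bp against 2007 bp, and were in introns in 58.1% (47.9 to 67.6) of cases, against 56.3%. Of them 12.9% (7.54 to 21.2) lay within 10 kb of a merged region with SKBR3 peaks under TWEAK alone, in both replicates, against 5.35% (4.91 to 5.83).

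NF-kB motifs were in 46 of the 93 regions that rose (49.5%, 39.5 to 59.4) and in 12.8% (12.1 to 13.5) of those that did not pass. AP-1 letters were in 40.9% (31.4 to 51.0) against 39.1%, TEAD letters in 24.7% against 21.1% and KLF letters in 8.60% against 12.1%, and the intervals of these shares overlapped. Read the other way, 46 of 1208 regions with the NF-kB motif rose (3.81%, 2.87 to 5.04), against 47 of 7948 without it (0.591%, 0.445 to 0.785), and 13 of 205 with 2 or more matches. With and without AP-1 letters, 1.06% and 0.987% rose. At an unadjusted p under 0.05, 25.2% of regions with both motifs and 6.48% of those with neither were higher with TWEAK. The motif was absent from 47 of the 93, near NPPC, MED14 and GATA3 among them.

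In the fit without a term for the replicate number, no SKBR3-specific distal region fell. The 5 with the lowest p among those lower with TWEAK had log2 changes between −0.68 and −0.88. Fold enrichment at chr16:70943756-70946383, in an intron of HYDIN, was 5.38 and 7.03 untreated and 3.24 and 4.04 with TWEAK, with a limma adjusted p of 0.0977. At chr3:133947869-133950203, in an intron of the prostaglandin transporter SLCO2A1, it was 5.58 and 6.99 against 4.10 and 3.06 (0.113). The remaining 3, in introns of PNPLA7 and CACNA2D4 and near BANF2, had limma adjusted p of 0.141, 0.185 and 0.141. Untreated values were above TWEAK values in all 5.

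**Figure D5:**
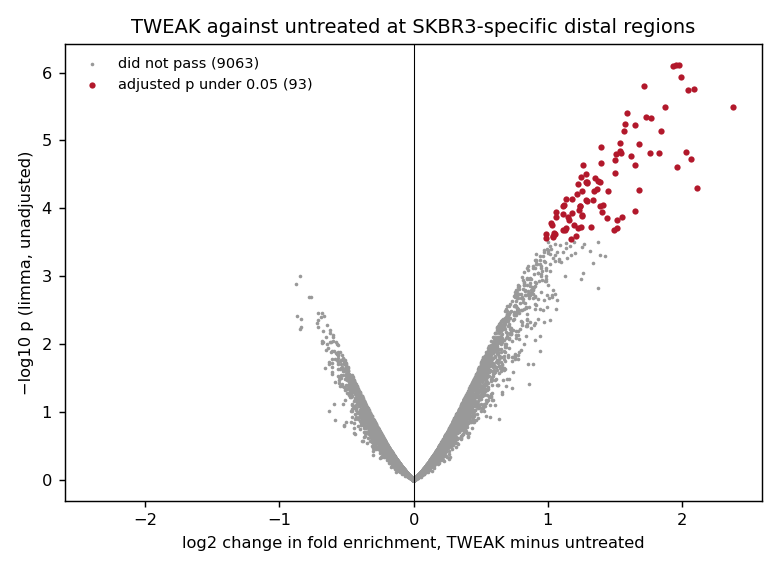
Log2 change in fold enrichment, TWEAK minus untreated (x axis), against −log10 of the unadjusted limma p (y axis) for the 9156 SKBR3-specific distal regions. The 93 regions at an adjusted p under 0.05, in red, lie at log2 changes of 0.99 to 2.38, and none lies on the lower side.

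Counts of calls rested on 2 libraries per group. Without TWEAK replicate 1, 456 SKBR3-specific distal regions rose and 34 fell (991 and 157 over all regions). Without untreated replicate 1, 187 rose and 3 fell (382 and 24 over all regions). Not every call made with all 4 libraries was kept when a library was left out. The larger part of these calls was kept in every such fit. More were lost without untreated replicate 2 and without TWEAK replicate 2 than in the other fits. Without untreated replicate 2 and without TWEAK replicate 2, the median log2 change was 0.018 and 0.017, against 0.029 with all 4 libraries. It was 0.048 without untreated replicate 1 and 0.037 without TWEAK replicate 1. Each of these fits leaves 1 library in a group. With percentile ranks in place of log2 values none passed in the limma fit, where 985 were higher and 335 lower at an unadjusted p under 0.05.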

How the data were processed

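H3K27ac ChIP-seq of SKBR3 and MDA-MB-453 cells gave 8 peak lists, 2 per group. Per the submitters' processing notes, the authors used Trimmomatic, Bowtie2, MACS2 and deepTools with hg38; versions and peak calling options are not given in the sources used here. Each deposited list holds, per peak, a score, a ratio called fold enrichment (signal over local background), and p-values and q-values as −log10, of which the lowest −log10 q was 1.00. Peaks were deposited per library, and per the study's methods the input signal was subtracted and blacklisted regions were removed. None of these values is a read count, so depth is unknown and no interval for reads can be given. Only fold enrichment and −log10 q were used.

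Sequence names and ends were checked against hg38, and 0 peaks fell outside it. Regions were merged, counted and annotated in Python 3.11.15 (pandas 2.3.3, pysam 0.24.0) with GENCODE release 44. Where a list had several peaks in a region, the highest was taken. Shares carry 95% Wilson intervals (scipy 1.17.1). TWEAK was compared with untreated by limma 3.58.1 in R 4.3.3 at an adjusted p under 0.05, after the fit was tested on simulated data. Motifs were searched in 1000 bp windows. The genome copy used here carries no repeat mask, so repeat shares were not computed.

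Regions were named by rule: the 10 with the highest mean percentile, the 10 clusters with most regions, the 5 with the lowest p in each direction, those next to the TSS limit, the 10 genes with most regions, and up to 5 genes of each list with most regions. Genes outside it are said to be chosen after their values were seen, or were named from the lists. The regions and lists were chosen with earlier results of these data known. Libraries were grouped by their labelled line and treatment. Alternatives were a stricter q, an overlap of 50%, merging over 1 kb, lists of equal size, a TSS limit of 5 kb, other windows and gaps, other normalisations and summaries, a replicate block, and leaving out each replicate. Some named regions, genes and motifs of these rules are not reported here.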

Additional observations from a re-analysis of the deposited data

How the results depend on the processing

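The number of SKBR3-specific distal regions fell to 3193 when only peaks with q under 1e-05 counted, which leaves fewer peaks in every list. The share in introns was 54.1% under that limit, 54.9% when peaks had to cover at least 50% of a region and 54.4% with lists of equal size, cut to 36148 peaks each. In the same order, promoters of the nearest gene held a peak in all 8 lists for 44.5%, 59.3% and 53.2%, genes nearest to a region made up 11.7%, 20.1% and 19.2%, and clusters numbered 198, 719 and 605. Genes made up 24.04% with peaks up to 1 kb apart merged, 20.8% at over 5 kb from a TSS and 22.04% with a TSS within 100 kb. AP-1 letters were in 40.2% under the stricter q and in 24.8% of windows of 500 bp. Regions that rose with TWEAK numbered 183 with median centring (1 fell), 49 with log2(fold enrichment + 1) and 0 with percentile ranks, against 349 (1.14%), 89 (0.292%) and 0 over all 30481 regions. The cause of these changes in calls was not tested. All 7 motif differences between the lines kept their direction in 14 planned settings, and in GC bands added after the data were seen the TFAP2 difference was -0.751 and -1.61 percentage points.

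Leaving out each library in turn gave 9280 to 10523 regions, 56.0% to 57.2% in introns, 38.3% to 40.2% with AP-1 letters, 57.9% to 58.7% with a promoter peak in all 8 lists, 25.1% to 27.1% of genes, 1154 to 1389 clusters and 88 to 456 regions that rose, with 187 without untreated replicate 1 and 456 without TWEAK replicate 1. The lone library left in a group was taken to vary like the others.

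With the replicate number as a replicate block, 802 rose (8.76%) and 135 fell, against 1716 (5.63%) and 615 over all regions. The 5 lower regions named in the report, which did not pass without the block, fell with it, at limma adjusted p from 1.44e-05 to 0.00166. Deviations of same-numbered libraries correlated at r of 0.44 over regions, but there are only 2 pairs and no label says that a number marks a shared batch or day.

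Depth is unknown, and 2 libraries per group limit every test.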
